A study of Mus musculus with 6 samples.

Results

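Glycolysis converts glucose to pyruvate in the cytosol, and lactate dehydrogenase then reduces pyruvate to lactate, which leaves the cell through monocarboxylate transporters. Growth cartilage has no blood vessels, and its chondrocytes are known to live at low oxygen and to rely on glycolysis. At low oxygen the alpha subunits of the hypoxia-inducible factors (HIF) escape hydroxylation by prolyl hydroxylases and breakdown through the von Hippel-Lindau protein, and the stabilised factors switch on glucose uptake, glycolytic and other target genes. The genes described here are 41 members of this system, chosen by symbol: 5 glucose and lactate transporters, 17 glycolytic enzymes, 3 regulators of glycolytic flux, 6 oxygen-sensing and HIF subunit genes and 10 other hypoxia response genes. All 41 were found among the 24346 gene symbols of the deposited tables.

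The libraries came from mouse spheno-occipital synchondrosis, a cartilage that drives growth of the cranial base, where laser microdissection of frozen sections separated layers of flat and round chondrocytes. FP libraries 11, 14 and 16 were set against RR libraries 11, 14 and 16. The labels do not spell out the codes FP and RR, so they are kept as codes. All 6 libraries shared the genotype Gli1CreERT2; Tomato flox, that is, a tamoxifen-dependent Cre recombinase driven from Gli1 and a reporter that Cre can switch on. Tamoxifen had been injected at postnatal day 3 for all of them, so no library lacks the transgenes or the drug. The tissue label is basilarcartilage, and the labels give no age at sampling. No label ties the libraries to separate animals, and the p-values therefore measure the spread between samples that may be technical replicates. Levels are in FPKM, a fragment count scaled by transcript length and by library. Within a group, 3 values are listed in the order of library numbers 11, 14 and 16.

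The total number of fragments is unknown. On a 2000 bp transcript 1 fragment was worth 0.128 to 0.254 FPKM in FP libraries and 0.176 to 0.299 FPKM in RR libraries, a 2.33-fold range of depth unless the authors scaled libraries to each other. All 14 chondrocyte markers were listed above 0 in every library, with Col2a1, the main cartilage collagen gene, between 38700 and 81870 FPKM. The estimates of all 14 were above 0, with a median log2 change of 0.84, and none passed in limma. At an unadjusted p under 0.05 there were 4 (28.6%), against 10.3% of all tested genes. For 5 (35.7%) every FP value lay above every RR value, against 8.74% of all tested genes. The part of the chondrocyte markers in the estimates of the members was not tested. Of 8 hypertrophic chondrocyte markers, 7 were called higher in FP, against 0.554% of all tested genes. The other, Ibsp, missed the threshold (limma adjusted p = 0.0571), at 138, 191 and 90.8 FPKM in FP and 41.6, 10.7 and 7.18 FPKM in RR. In all 8 every FP value lay above every RR value, against 8.74% of all tested genes. The 8 summed to 1093 to 1353 FPKM in FP libraries and 124.4 to 178.1 FPKM in RR libraries. Of 18 skeletal muscle markers, 16 had estimates above 0 and none passed in limma. At an unadjusted p under 0.05 there were 7 (38.9%), against 10.3% of all tested genes. Among these 7, Mb was lower in FP (log2 change -1.86) and the others were higher. Without Tnni2, which alone held 236 to 769 FPKM, they summed to 297.9, 174.1 and 300.8 FPKM in FP libraries and to 281.1, 47.57 and 61.65 FPKM in RR. Mb was at 0 in FP 11 and Actn3 in RR 16. Of 8 adipocyte markers, the 6 tested all had estimates below 0. The sum was 8.958 to 38.23 FPKM in FP libraries and 18.27, 10.55 and 417.3 FPKM in RR libraries, where RR 16 stood apart. Fabp4 alone held 369 FPKM in RR 16. Adipoq, Plin1, Plin4 and Cidec were also highest in RR 16, while Retn, Lep and Cfd were not. Adipoq, Cidec and Fabp4 were at 0 in 1 or more of the other libraries. In bulk samples such as these, fewer cells of a type and less RNA per cell cannot be told apart.

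No member differed between FP and RR past the threshold, in either direction. The limma test ran on log2(FPKM + 1) over 14789 genes, those averaging 1 FPKM or more, and the threshold was a Benjamini-Hochberg adjusted p of 0.05. Of the 39 members tested, 0 were higher and 0 lower in FP, while 143 of all tested genes were called (0.967%), 82 higher (0.554%) and 61 lower (0.412%). At an unadjusted p under 0.05 there were 4 of 39 members (10.26%), Slc16a3, Ankrd37, Ldhb and Pfkp, against 10.3% of all tested genes. The FP and RR values did not overlap for 7 of the 39 tested members (17.95%), against 16% of all tested genes. Slc16a3 and Ankrd37 lay above RR in all 3 FP libraries, a direction that 8.74% of all tested genes showed. Pfkp, Ldhb, Bnip3l, Ndrg1 and Ero1l lay below RR, which 7.28% of all tested genes showed. The combined share of the members is near that of all genes; by direction it was 5.13% above RR and 12.8% below. The median log2 change was 0.06 over the 39 members and 0.02 over all tested genes, with 23 of the 39 estimates above 0.

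A missed threshold does not show that levels were alike. The standard errors of the 39 log2 changes ran from 0.24 to 0.64. For 11 members (28.2%) the 95% interval, unadjusted, lay within 1 log2 unit of 0 on both sides, against 32.0% of all tested genes, and for the other 28 a change of 1 log2 unit in some direction stayed inside it. Rescaling each library to the same summed FPKM of the tested genes, without the most abundant ones, moved the median of all genes to -0.13 and that of the members to -0.12, so both moved together.

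**Figure D1:**
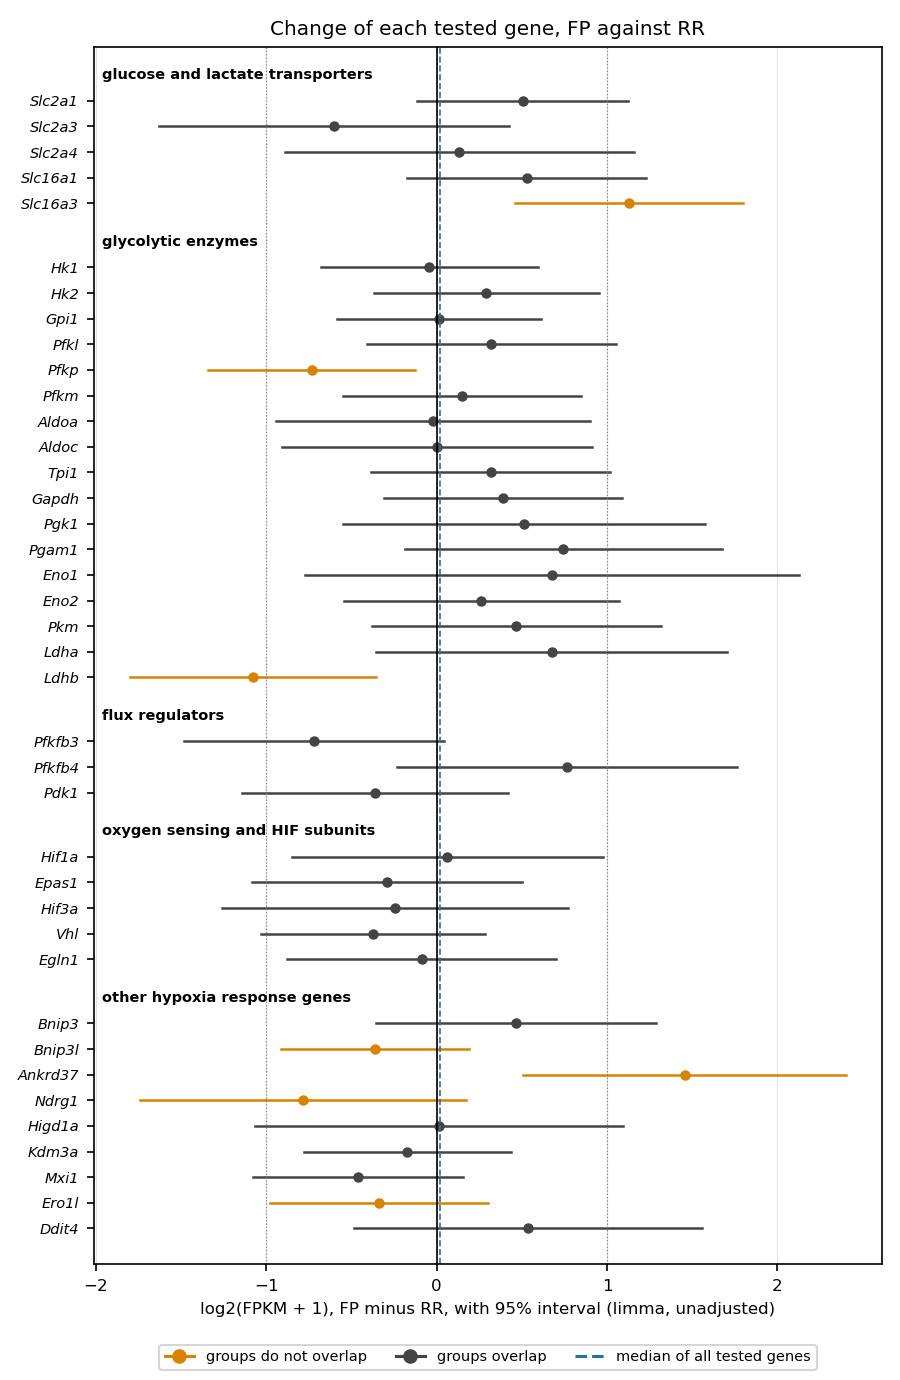
Log2 change of each of the 39 tested members, FP minus RR on the log2(FPKM + 1) scale, with the unadjusted 95% limma interval; orange marks the 7 genes whose FP and RR values do not overlap, dotted lines mark 1 log2 unit and the dashed line the median of all tested genes. Ankrd37 and Slc16a3 have the highest estimates and Ldhb the lowest, and most intervals cross 0.

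Levels of the members spanned a wide range. Of the 41, 2 averaged at least 100 FPKM over the 6 libraries, 21 averaged 10 to 100 FPKM, 16 averaged 1 to 10 FPKM and 2 less than 1 FPKM. Pkm, the pyruvate kinase gene that makes the last ATP-yielding step, was highest at a mean of 234 FPKM, which ranked 190 among all 24346 symbols. Gapdh, the triose dehydrogenase gene often used as a reference for expression, followed at 178 FPKM, rank 226. Ldha, Aldoa, Eno1 and Pgam1 came next with means of 98.8, 95.04, 76.0 and 65.4 FPKM. The order of neighbours among these did not exceed their spread: Ldha alone ran from 67.4 to 183 FPKM in FP and from 40.9 to 95.1 FPKM in RR. Hif1a, at a mean of 27.9 FPKM, was the most abundant of the oxygen-sensing and HIF genes.

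**Figure D2:**
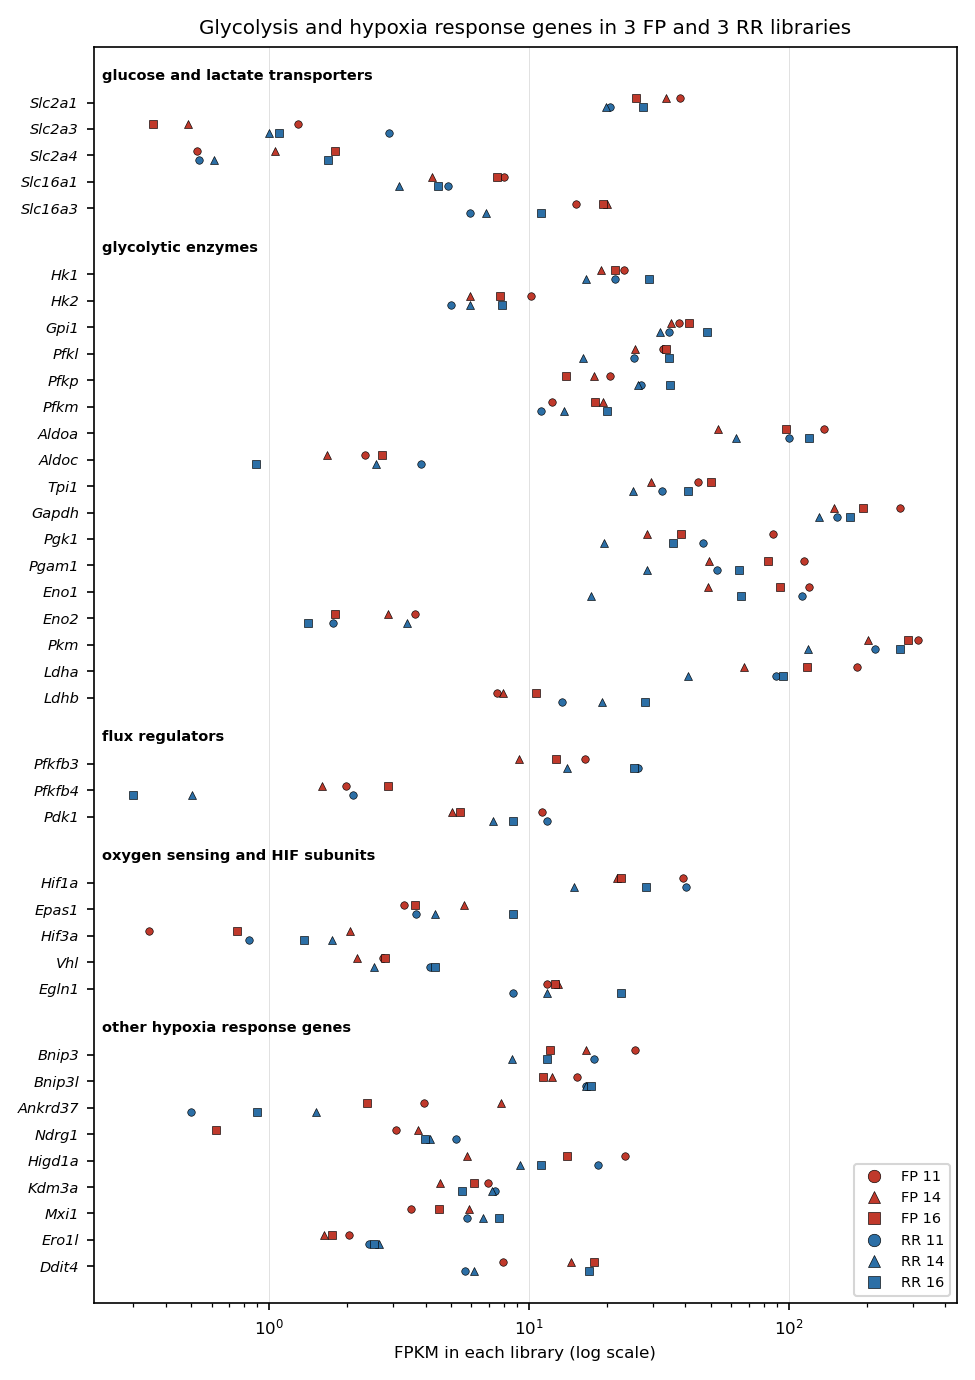
FPKM (log scale) of each tested member in FP libraries (red, upper points of each gene) and RR libraries (blue, lower points), with the marker giving the library number. Pkm and Gapdh sit highest, at 118 FPKM or more in every library, and red and blue points interleave for most genes. Egln3 and Adm, which were listed at 0 in some libraries, are not drawn.

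Among the transporters, the gene of a lactate exporter had the largest estimate. Slc16a3, which encodes the monocarboxylate transporter MCT4 known from strongly glycolytic cells (chr11:120948480-120960868, mm10), had 15.2, 19.9 and 19.3 FPKM in FP libraries and 5.94, 6.84 and 11.1 FPKM in RR libraries. The groups did not overlap, the nearest pair being FP 11 and RR 16. Its mean was 18.2 ± 2.57 FPKM in FP and 7.96 ± 2.76 FPKM in RR (SD, n = 3 each), a ratio of 2.28, and its log2 change of 1.13 ± 0.29 (SE; 95% interval 0.46 to 1.80) did not pass (limma adjusted p = 0.177, range over the alternatives 0.0687 to 0.807). Slc16a1, which encodes the related transporter MCT1, had 8.02, 4.23 and 7.53 FPKM in FP and 4.89, 3.16 and 4.47 FPKM in RR, with FP 14 inside the RR range. Slc16a3 held 65.5%, 82.5% and 72.0% of the summed FPKM of both genes in FP libraries and 54.8%, 68.4% and 71.3% in RR libraries, which overlap.

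Slc2a1, which encodes the basal glucose transporter GLUT1, was the highest of the 3 glucose transporter genes among the members in every library. It had 38.1, 33.6 and 25.7 FPKM in FP and 20.4, 19.8 and 27.5 FPKM in RR, so that FP 16 lay below RR 16 (log2 change 0.50 ± 0.27, SE; 95% interval -0.12 to 1.12; limma adjusted p = 0.618). After the rescaling the Slc2a1 estimate was 0.32. Slc2a3, the gene of the high-affinity transporter GLUT3, had 1.29, 0.488 and 0.357 FPKM in FP and 2.89, 0.994 and 1.09 FPKM in RR. Slc2a4, the gene of the insulin-responsive transporter GLUT4 of muscle and fat, had 0.528, 1.05 and 1.79 FPKM in FP and 0.535, 0.611 and 1.68 FPKM in RR. Both minor genes overlapped between groups. Slc2a1 made up 95.5%, 95.6% and 92.3% of the summed FPKM of these 3 glucose transporter genes in FP and 85.6%, 92.5% and 90.8% in RR. All 5 transporters together summed to 63.2, 59.3 and 54.7 FPKM in FP libraries and to 34.7, 31.4 and 45.8 FPKM in RR. These sums did not overlap, nor did they after the rescaling (50.5 to 57.7 in FP, 36.7 to 43.4 in RR). Slc2a1 and Slc16a3 held most of each sum, and Slc16a3 alone did not overlap, so the sums are not a separate result. Sums of other genes were not compared.

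Promoter windows of 5 members are shown because 4 of them had the smallest p-values and Ldha is the partner of Ldhb. Each window is the 250 bases before the first RefSeq start of the gene on build GRCm38.p6, given 5′ to 3′ on the strand of the gene. Capitals mark every match of the core letters to which HIF is known to bind, ACGTG or GCGTG, on either strand, so that CACGT and CACGC are matches on the other strand. Overlapping matches run together.
Slc16a3: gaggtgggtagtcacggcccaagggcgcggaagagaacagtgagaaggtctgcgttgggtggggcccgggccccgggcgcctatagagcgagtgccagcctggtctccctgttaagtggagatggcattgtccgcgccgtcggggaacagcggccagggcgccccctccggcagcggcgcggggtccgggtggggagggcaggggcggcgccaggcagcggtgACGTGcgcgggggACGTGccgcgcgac
Ankrd37: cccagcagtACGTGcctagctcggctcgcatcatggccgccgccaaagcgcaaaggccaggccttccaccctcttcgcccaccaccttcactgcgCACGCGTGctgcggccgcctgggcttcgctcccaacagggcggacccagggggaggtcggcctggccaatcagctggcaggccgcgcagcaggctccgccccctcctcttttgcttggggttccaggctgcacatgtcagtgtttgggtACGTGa
Ldha: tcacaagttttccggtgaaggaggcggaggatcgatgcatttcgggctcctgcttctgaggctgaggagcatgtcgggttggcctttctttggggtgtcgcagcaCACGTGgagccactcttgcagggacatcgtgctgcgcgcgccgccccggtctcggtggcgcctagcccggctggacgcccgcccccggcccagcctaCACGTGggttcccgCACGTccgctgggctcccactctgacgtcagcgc
Ldhb: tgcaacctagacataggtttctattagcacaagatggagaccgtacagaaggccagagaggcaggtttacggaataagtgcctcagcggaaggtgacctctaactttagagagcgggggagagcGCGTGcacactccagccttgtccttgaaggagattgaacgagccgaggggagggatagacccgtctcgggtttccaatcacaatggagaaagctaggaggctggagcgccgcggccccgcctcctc
Pfkp: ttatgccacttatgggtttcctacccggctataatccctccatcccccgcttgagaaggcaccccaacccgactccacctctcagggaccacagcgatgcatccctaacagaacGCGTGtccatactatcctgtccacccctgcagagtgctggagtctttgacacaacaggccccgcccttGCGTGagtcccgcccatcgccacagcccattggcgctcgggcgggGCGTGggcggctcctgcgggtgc
The Slc16a3 window (chr11:120948817-120949066, plus strand) holds 2 matches, 27 and 14 bases before the start. The Ankrd37 window (chr8:45999851-46000100, minus strand) holds 4, the nearest 6 bases before the start. The Ldha window (chr7:46845554-46845803, plus strand) holds 5, because 2 palindromic stretches count on both strands. The Ldhb window (chr6:142507958-142508207, minus strand) holds 1 and the Pfkp window (chr13:6648772-6649021, minus strand) holds 3. The Slc16a3, Ankrd37 and Ldha windows lie inside the span that GENCODE, another annotation, gives for the gene. Its start there is further upstream than the RefSeq start used. Of 53 windows that RefSeq gives for 36 of the members, 41 (77.4%) hold at least 1 match, against 38.6% of all 32851 windows and 52.0% of the 14030 windows of tested genes. Windows of 1 gene can overlap. By gene, 32 of 36 members (88.9%) hold a match, against 57.0% of the tested genes with windows. The members were chosen for these pathways, so a higher share may come from that choice and is not a result of the libraries. A match of 5 letters is a description of the sequence and not a binding site. Genes with matches lay on both sides: the windows of Slc16a3 and Ankrd37, above RR in all FP libraries, hold the core, as do those of Ldhb and Pfkp, below RR in all FP libraries.

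For the glycolytic enzymes, in the order of the pathway, 13 of 17 estimates were above 0 with a median log2 change of 0.29. None passed in limma (Pfkp and Ldhb, both lower in FP, had an unadjusted p under 0.05). Over all tested genes, 7634 of 14789 estimates were above 0, with a median of 0.02. That median was 0.14 for genes averaging at least 5 FPKM. Hexokinases phosphorylate glucose and so trap it in the cell. Hk1 had 23.3, 18.9 and 21.4 FPKM in FP and 21.4, 16.6 and 28.9 FPKM in RR, and Hk2, a known HIF target, had 10.2, 5.95 and 7.76 FPKM in FP and 5.02, 5.93 and 7.89 FPKM in RR. Both overlapped between groups. Gpi1, the glucose phosphate isomerase gene, was at 35.3 to 41.2 FPKM in FP and 32.0 to 48.5 FPKM in RR.

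Within the phosphofructokinase genes, whose enzyme makes the committed step of glycolysis, the Pfkp and Pfkl shares did not overlap between groups. No test of them passed. Pfkp, the platelet-type gene (chr13:6579768-6648777, mm10), had 20.5, 17.8 and 13.8 FPKM in FP and 27.1, 26.3 and 34.9 FPKM in RR, with every FP value below every RR value. Its mean was 17.4 ± 3.37 FPKM in FP and 29.5 ± 4.76 FPKM in RR (SD, n = 3 each), and the log2 change of -0.73 ± 0.27 (SE; 95% interval -1.34 to -0.13) did not pass (limma adjusted p = 0.368, range over the alternatives 0.156 to 0.823). Pfkl, the liver-type gene, had 32.9, 25.5 and 33.8 FPKM in FP and 25.4, 16.1 and 34.6 FPKM in RR, and Pfkm, the muscle-type gene, had 12.3, 19.3 and 17.96 FPKM in FP and 11.1, 13.7 and 19.99 FPKM in RR. Both overlapped. Pfkp therefore made up 31.2%, 28.4% and 21.1% of the family in FP, 26.9% ± 5.24 (SD, n = 3), and 42.6%, 46.9% and 39.0% in RR, 42.8% ± 3.96 (SD, n = 3). Pfkl made up 50.1%, 40.8% and 51.5% in FP and 39.96%, 28.7% and 38.6% in RR. Neither share overlapped between groups, and since the shares of a family sum to the whole they are not independent. Exons of Pfkp overlap those of Pitrm1 on the opposite strand, which stood at 13.9, 6.19 and 7.64 FPKM in FP libraries and 8.10, 5.29 and 5.67 FPKM in RR libraries.

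None of the aldolase and triose genes separated the groups. Aldoa, the aldolase of muscle and most tissues, had 137, 53.5 and 97.6 FPKM in FP and 100, 62.4 and 120 FPKM in RR, and Aldoc, its brain-type relative, had 2.33, 1.67 and 2.71 FPKM in FP and 3.82, 2.59 and 0.890 FPKM in RR. Their log2 changes lay near 0, but the 95% interval of Aldoa reached from -0.94 to 0.90. Tpi1, the triose phosphate isomerase gene, was at 29.5 to 50.3 FPKM in FP and 25.2 to 40.95 FPKM in RR. Gapdh had 268, 149 and 194 FPKM in FP and 153, 130 and 172 FPKM in RR, with FP 14 inside the RR range (log2 change 0.39 ± 0.31, SE; 95% interval -0.31 to 1.09; limma adjusted p = 0.762). The Gapdh estimate was 0.17 without FP 11, 0.59 without FP 14, 0.20 after the rescaling and 0.031 under quantile normalization.

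Of the lower enzymes, the genes of the ATP-yielding steps and of the steps between them had estimates above 0, none of them past the threshold. Pgk1, the phosphoglycerate kinase gene, had 87.2, 28.5 and 38.6 FPKM in FP and 46.7, 19.4 and 35.7 FPKM in RR. Pgam1, the phosphoglycerate mutase gene, had 114, 49.2 and 83.5 FPKM in FP and 52.9, 28.5 and 64.3 FPKM in RR (log2 change 0.74 ± 0.41, SE; 95% interval -0.19 to 1.67; limma adjusted p = 0.624). The Pgam1 estimate was 0.41 without RR 14, 0.47 without FP 11 and 0.45 under quantile normalization. In both genes FP was above RR within each of the 3 library numbers, while the groups as a whole overlapped. Pkm had 314, 201 and 288 FPKM in FP and 215, 118 and 269 FPKM in RR, with FP 14 below RR 11 and RR 16 (log2 change 0.47 ± 0.37, SE; 95% interval -0.38 to 1.31; limma adjusted p = 0.764). The Pkm estimate was 0.13 without RR 14, 0.72 without RR 16, 0.28 after the rescaling and 0.098 under quantile normalization.

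Eno1, the main enolase gene, had 120, 49.0 and 92.4 FPKM in FP and 112, 17.3 and 65.7 FPKM in RR (log2 change 0.68 ± 0.64, SE; limma adjusted p = 0.813). Its near-identical copy Eno1b had 54.4, 28.7 and 27.7 FPKM in FP and 0.309, 33.1 and 44.9 FPKM in RR, so that reads may have been split between them unequally and the Eno1 value alone is uncertain. The sum of both was 174, 77.7 and 120 FPKM in FP and 113, 50.4 and 111 FPKM in RR, a log2 difference of 0.45, again with overlap. Without RR 14 the Eno1 estimate turned to -0.074. Eno2, the enolase gene known from neurons, had 3.64, 2.87 and 1.80 FPKM in FP and 1.76, 3.38 and 1.41 FPKM in RR.

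The Ldhb share of the lactate dehydrogenase subunit genes did not overlap between groups either, and its test did not pass. Ldhb, whose subunit is known to favour the conversion of lactate to pyruvate (chr6:142490249-142507957, mm10), had 7.53, 7.95 and 10.7 FPKM in FP and 13.4, 19.1 and 28.0 FPKM in RR, and no FP value reached the lowest RR value. Its mean was 8.71 ± 1.70 FPKM in FP and 20.2 ± 7.38 FPKM in RR (SD, n = 3 each), 2.31 times as high in RR, and the log2 change of -1.08 ± 0.32 (SE; 95% interval -1.80 to -0.35) did not pass (limma adjusted p = 0.241, range over the alternatives 0.0687 to 0.834). RR 16, the library with 417.3 FPKM of adipocyte markers (369 FPKM of it Fabp4), held the highest Ldhb value. Without RR 16 the log2 change was -0.82. A part of fat cells in the Ldhb level was not tested. Ldha, whose subunit is known to favour lactate formation, had 183, 67.4 and 117 FPKM in FP and 89.3, 40.9 and 95.1 FPKM in RR, which overlap (log2 change 0.68 ± 0.45, SE; 95% interval -0.35 to 1.71; limma adjusted p = 0.709). The Ldha estimate was 0.29 without RR 14, 0.33 without FP 11, 1.05 without FP 14 and 0.35 under quantile normalization.

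Ldhb made up 3.96%, 10.6% and 8.35% of the summed FPKM of Ldha and Ldhb in FP, 7.62% ± 3.36 (SD, n = 3), and 13.0%, 31.8% and 22.8% in RR, 22.5% ± 9.41 (SD, n = 3). Every FP share lay below every RR share, and within each number the RR share was higher. The exact two-sided permutation test over libraries gave p = 0.1 for this share and for those of Pfkp and Pfkl, which is the smallest p that 3 libraries against 3 allow, so these tests cannot reach the threshold. Of 11 family shares compared, 3 did not overlap, and the adjusted p of each was 0.367. By level, 16% of all tested genes did not overlap. Bnip3l of the Bnip3 pair came close, at 37.6%, 42.6% and 48.5% in FP and 48.3%, 65.8% and 59.6% in RR, with FP 16 just above RR 11. The Ldhb and Pfkp shares reuse genes whose levels already did not overlap. A scaling of the whole library cancels within a family share, and the cause of the differences was not tested.

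**Figure D3:**
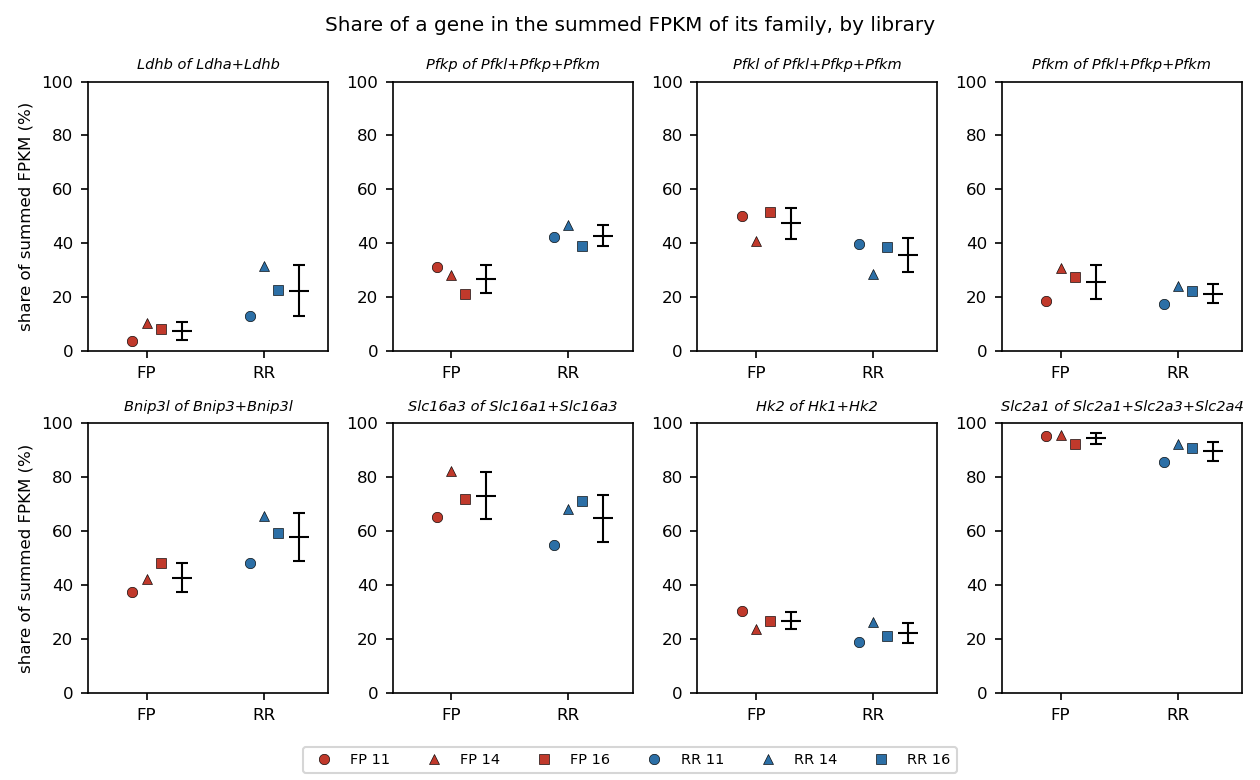
Share (%) of 1 gene in the summed FPKM of its family in each FP library (red, left) and RR library (blue, right), with mean and SD (n = 3) beside the points. The Ldhb, Pfkp and Pfkl shares do not overlap between groups, with Ldhb at 3.96% to 10.6% in FP and 13.0% to 31.8% in RR.

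The enzymes also varied between libraries of 1 group, with library 14 low for most of them in both groups. In FP, library 14 was lowest for 13 of 17 enzymes (76.5%) and library 11 highest for 11 of 17, while among all tested genes FP 14 was lowest for 35.5% and FP 11 highest for 39.5%. In RR, library 14 was lowest for 12 of 17 (70.6%) and library 16 highest for 13 of 17, while among all tested genes RR 14 was lowest for 35.3% and RR 16 highest for 36.5%. The library that was highest thus differed between FP and RR. The summed enzyme level was 1416, 763 and 1112 FPKM in FP and 946, 578 and 1068 FPKM in RR, and FP 14 lay below RR 11 and RR 16. After the rescaling it was 1293, 742 and 1026 FPKM in FP and 1046, 674 and 1010 FPKM in RR. Both libraries numbered 14 were also the shallowest of their groups, where 1 fragment on a 2000 bp transcript was worth most. After the rescaling, FP 14 was still lowest for 13 and RR 14 for 11 enzymes. The number of enzymes higher in FP than its same-numbered RR library was 14 of 17 for 11 (82.4%, against 54.5% of all tested genes), 12 for 14 (70.6%, against 51.3%) and 9 for 16 (52.9%, against 48.95%). After the rescaling it was 10 for 11 (58.8%, against 39.0%), 7 for 14 (41.2%, against 39.9%) and 9 for 16 (52.9%, against 47.2%), so the shares of all genes moved with the scaling too. The muscle marker sum was lowest in FP 14 and RR 14 too, with or without Tnni2, and muscle is rich in glycolytic enzymes. Without Tnni2 it was 281.1, 47.57 and 61.65 FPKM in RR, so RR 16, highest for most enzymes, lay near RR 14. With Tnni2 it was 729.5, 283.8 and 830.8 FPKM in RR. The part of muscle in the pattern was not tested.

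**Figure D4:**
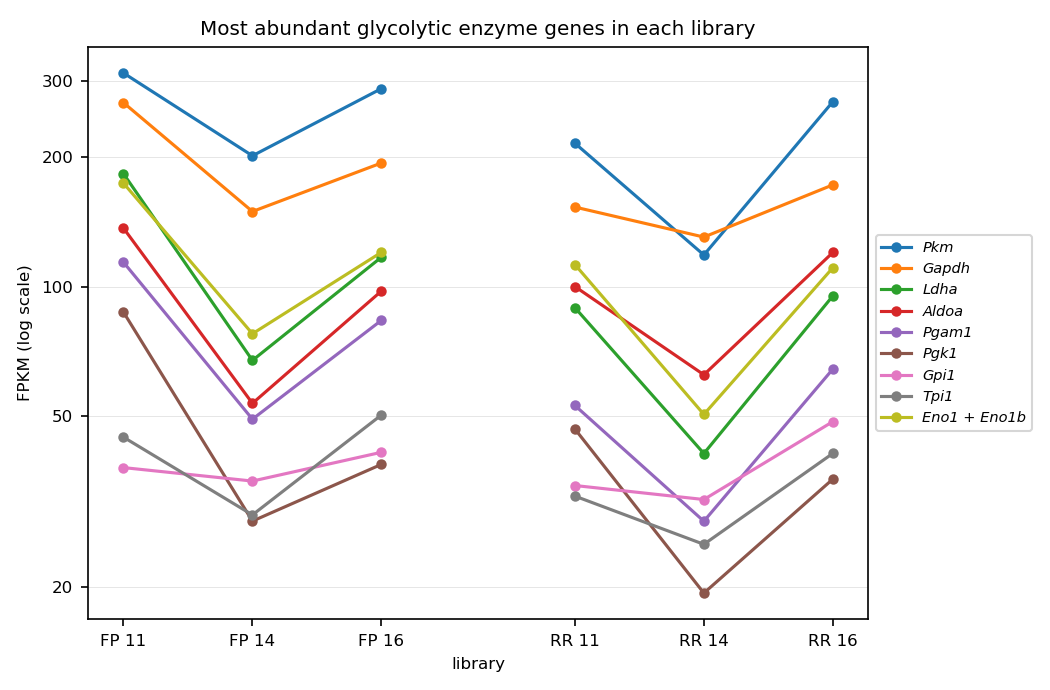
FPKM (log scale) of the most abundant glycolytic enzyme genes in FP libraries (left) and RR libraries (right); lines only join the values of 1 gene within a group. Library 14 is the lowest of its group for every line drawn in both FP and RR, for example Ldha at 67.4 FPKM in FP 14 and 40.9 FPKM in RR 14.

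The 3 flux regulators pointed both ways. Pfkfb3, whose enzyme makes the fructose bisphosphate that activates phosphofructokinase, had 16.4, 9.13 and 12.7 FPKM in FP and 26.3, 14.02 and 25.3 FPKM in RR. FP was lower within each number, but FP 11 lay above RR 14 (log2 change -0.72 ± 0.33, SE; 95% interval -1.48 to 0.04; limma adjusted p = 0.525). Pfkfb4, a hypoxia-inducible relative, had 1.97, 1.60 and 2.86 FPKM in FP and 2.11, 0.507 and 0.299 FPKM in RR, so that only RR 11 reached the FP range. Pdk1, whose kinase holds pyruvate back from the mitochondrion, had 11.2, 5.06 and 5.45 FPKM in FP and 11.8, 7.28 and 8.66 FPKM in RR, again with overlap.

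The oxygen-sensing genes showed no separation between groups in any of the 6. Hif1a, the alpha subunit known to be needed for chondrocyte survival in the growth plate, had 39.3, 21.8 and 22.6 FPKM in FP and 40.2, 14.9 and 28.2 FPKM in RR, and its 95% interval ran from -0.85 to 0.97 log2 units. Epas1, which encodes the second alpha subunit, had 3.31, 5.60 and 3.64 FPKM in FP and 3.68, 4.35 and 8.68 FPKM in RR. Hif3a, the third, had 0.343, 2.05 and 0.749 FPKM in FP and 0.836, 1.75 and 1.36 FPKM in RR. HIF activity is known to be set largely at the protein level, which these RNA values do not measure.

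Egln1, the main prolyl hydroxylase that marks HIF for breakdown, had 11.7, 13.0 and 12.6 FPKM in FP and 8.66, 11.7 and 22.6 FPKM in RR, a narrow range in FP inside a wide one in RR. Vhl, which encodes the recognition subunit of the ligase, had 2.74, 2.17 and 2.78 FPKM in FP and 4.16, 2.53 and 4.36 FPKM in RR, and RR 14 fell inside the FP range. Egln3, a hydroxylase gene that HIF itself is known to induce, averaged under 1 FPKM and was not tested. Its listed values were 0.839, 0 and 0 FPKM in FP and 0.709, 0 and 1.02 FPKM in RR. A 0 in these tables can be a failed estimate, since the ribosomal protein gene Rpl26 was listed at 0 in 5 of the 6 libraries.

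Among the other hypoxia response genes, Ankrd37 had the largest estimate of all 39 members. Ankrd37, an ankyrin repeat gene known as a HIF target (chr8:45996902-46005707, mm10), had 3.94, 7.83 and 2.39 FPKM in FP and 0.499, 1.52 and 0.897 FPKM in RR. Each FP value lay above each RR value, at means of 4.72 ± 2.80 FPKM in FP and 0.972 ± 0.514 FPKM in RR (SD, n = 3 each). The log2 change of 1.46 ± 0.42 (SE; 95% interval 0.51 to 2.40) did not pass (limma adjusted p = 0.220, range over the alternatives 0.0971 to 0.662). On its 927 bp transcript these levels correspond to about 14.2, 14.3 and 5.9 fragments in FP and 1.2, 2.4 and 2.4 in RR, so counting error is large. Its exons overlap those of Ufsp2 and Lrp2bp on the opposite strand, and the labels used here do not say whether counting used strand. Ufsp2 stood at 20.2, 6.38 and 9.80 FPKM in FP and 11.2, 3.72 and 6.36 FPKM in RR.

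Bnip3l and Bnip3 encode related receptors that mark mitochondria for removal. Bnip3l had 15.4, 12.2 and 11.4 FPKM in FP and 16.6, 16.5 and 17.3 FPKM in RR, with the groups apart but by little (log2 change -0.36 ± 0.24, SE; limma adjusted p = 0.710). Bnip3, a classical hypoxia target, had 25.5, 16.5 and 12.1 FPKM in FP and 17.8, 8.58 and 11.8 FPKM in RR, which overlap and lean the other way. Ndrg1, a hypoxia and stress-responsive gene, had 3.09, 3.75 and 0.623 FPKM in FP and 5.22, 4.17 and 3.98 FPKM in RR (log2 change -0.78 ± 0.42, SE; limma adjusted p = 0.617), and without FP 16 the log2 change was -0.30. Ero1l, an oxidase of disulfide formation in the endoplasmic reticulum, had 2.02, 1.63 and 1.75 FPKM in FP and 2.41, 2.66 and 2.54 FPKM in RR (log2 change -0.34 ± 0.28, SE; limma adjusted p = 0.774). In both Ndrg1 and Ero1l the FP values lay below the RR values without exception.

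Mxi1, an antagonist of Myc, had 3.52, 5.86 and 4.49 FPKM in FP and 5.76, 6.62 and 7.65 FPKM in RR, with FP 14 just above RR 11 (log2 change -0.46 ± 0.27, SE; limma adjusted p = 0.654). Ddit4, an inhibitor of mTOR signalling that stress and hypoxia induce, had 7.93, 14.5 and 17.9 FPKM in FP and 5.67, 6.12 and 17.0 FPKM in RR. Higd1a, a mitochondrial protein gene, ranged from 5.76 to 23.5 FPKM in FP and from 9.26 to 18.5 FPKM in RR, and Kdm3a, a histone demethylase gene, from 4.55 to 6.93 FPKM in FP and from 5.51 to 7.43 FPKM in RR. All 4 overlapped between groups. Adm, which encodes the vasodilator adrenomedullin, averaged under 1 FPKM and was not tested. Its listed values were 0.391, 0 and 0 FPKM in FP and 0.892, 0.905 and 1.34 FPKM in RR, which do not overlap. These correspond to about 2.1, 0 and 0 fragments in FP and 3.2, 2.1 and 5.3 in RR, so counting error is large.

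Further genes of the pathway were counted from lists drawn up by function, with earlier results of these data known. Of 17 other HIF pathway regulators, all tested, 1 was called higher in FP and 0 lower, against 0.554% and 0.412% of all tested genes. It was Siah2, which encodes a ubiquitin ligase known to break down prolyl hydroxylases at low oxygen (chr3:58674938-58692400, mm10), at 10.5, 11.8 and 8.06 FPKM in FP and 2.45, 2.57 and 1.93 FPKM in RR. The groups stood well apart, 4.37-fold in the means (10.1 ± 1.91 FPKM in FP and 2.32 ± 0.341 FPKM in RR, SD, n = 3 each), with a log2 change of 1.74 ± 0.26 (SE, limma adjusted p = 0.0233). The call ended whichever of the 6 libraries was left out (limma adjusted p 0.0857 to 0.134), while the log2 change stayed between 1.63 and 1.88.

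Of 39 other HIF target genes, 37 were tested, and the median log2 change was -0.04. In limma 2 were called higher in FP and 0 lower, against 0.554% and 0.412% of all tested genes. Car12, a membrane carbonic anhydrase that exports acid equivalents (chr9:66713686-66766845, mm10), had 52.4, 23.5 and 29.9 FPKM in FP and 2.42, 3.52 and 5.15 FPKM in RR, 9.55-fold in the means (log2 change 2.91 ± 0.36, SE; limma adjusted p = 0.0108). Stc2, a secreted stanniocalcin (chr11:31357307-31370074, mm10), had 9.56, 9.79 and 6.74 FPKM in FP and 0.882, 1.68 and 0.594 FPKM in RR, 8.28-fold in the means (log2 change 2.26 ± 0.31, SE; limma adjusted p = 0.0154). Both stood apart in all libraries. The Car12 call ended without FP 16, RR 11 or RR 14 (adjusted p = 0.0882, 0.0580 and 0.0708), and the Stc2 call when any library other than RR 14 was left out (adjusted p 0.0704 to 0.105). These 3 genes share their direction with the hypertrophic markers given above, and the part of that difference between groups in their levels was not tested.

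The rest of the HIF targets did not pass. P4ha2, a collagen prolyl hydroxylase subunit, had 82.3, 42.5 and 57.4 FPKM in FP and 39.7, 31.6 and 29.7 FPKM in RR (log2 change 0.79 ± 0.31, SE; limma adjusted p = 0.414). Angptl4, a lipase inhibitor also made by fat cells, had listed values of 1.90, 0 and 0.985 FPKM in FP and 2.06, 3.45 and 7.77 FPKM in RR (log2 change -1.46 ± 0.52, SE; limma adjusted p = 0.354). Its highest value was in RR 16, where the adipocyte marker sum, most of it Fabp4, stood apart. Vegfa, the vascular growth factor and best-known HIF target, named here for its role after its values were seen, had 30.6, 39.6 and 42.9 FPKM in FP and 39.4, 50.2 and 83.7 FPKM in RR (log2 change -0.55 ± 0.33, SE; limma adjusted p = 0.669). Without RR 16 the Vegfa estimate was -0.25. The Vegfa estimate had the opposite sign to those of Car12 and Stc2.

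Of 16 other glycolysis isozymes, 8 were tested and 0 passed in limma. At an unadjusted p under 0.05 there were 2 (25.0%), against 10.3% of all tested genes. The other 8 averaged under 1 FPKM. The 2 with an unadjusted p under 0.05 were Minpp1, an inositol phosphatase with a bisphosphoglycerate phosphatase activity, at 8.49, 11.9 and 9.01 FPKM in FP and 5.37, 4.19 and 5.60 FPKM in RR (log2 change 0.83 ± 0.26, SE; limma adjusted p = 0.274), and Adpgk, an ADP-dependent glucokinase, at 25.2, 22.6 and 17.0 FPKM in FP and 13.5, 10.4 and 13.5 FPKM in RR (log2 change 0.74 ± 0.27, SE; limma adjusted p = 0.357). In both, every FP value lay above every RR value, as in 3 of the 8 tested (37.5%), against 8.74% of all tested genes.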

How the data were processed

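RNA was measured in 6 libraries (3 FP, 3 RR) prepared with a SMARTer Stranded Total RNA kit for picogram input, per the labels' protocols. The authors deposited FPKM values for 24346 gene symbols. The submitters' processing notes name Cuffdiff 2.2.1, TopHat2 2.1.1, SAMtools 0.1.18, Bowtie2 2.2.8 and build mm10, with no order or settings. The sources used here do not give the annotation, the use of strand or any scaling between libraries. Groups are the title codes.

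The limma 3.58.1 package of R 4.3.3 tested log2(FPKM + 1), FP minus RR, two-sided and with an intensity trend, over the 14789 genes averaging 1 FPKM or more; calls needed a Benjamini-Hochberg adjusted p under 0.05. This scale understates changes of low genes. Family shares were compared by exact permutation tests. Depth was read from steps in low values: 69.7% to 73.1% were whole within 0.1 fragments, against 20% by chance. The fit was tested on simulated data. Gene coordinates are from GENCODE M21 (mm10), promoter windows from RefSeq (GRCm38.p6), matched for 36 of 41 members (Ero1l as Ero1a; all but Ndrg1, Slc2a3, Bnip3l, Slc2a4 and Epas1). Named are members whose groups do not overlap, isozyme families, and of other lists the genes past the threshold and up to 2 more with the smallest p. Other lists were searched by symbol, 4 symbols of all lists were found by a synonym, and 2 (Tf, Hbb-bt) were not matched. Members, lists and tests were chosen with earlier results of these data known. The alternatives, among them other pseudocounts, filters, scalings and left-out libraries, are given at the end.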

Additional observations from a re-analysis of the deposited data

How the results depend on the processing

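Under each of the 17 alternatives 0 members were called higher and 0 lower, and the lowest adjusted p of any member was 0.0687 (Slc16a3, library number as a replicate block). Of 472 recomputed log2 changes of the 28 named genes, 448 kept direction and side of the threshold, 23 (of Siah2, Car12 and Stc2) no longer passed, and 1 turned, Eno1 without RR 14 (-0.074; range without 1 library -0.074 to 1.24). The cause was not tested. Summing Eno1 with Eno1b, an alternative chosen after seeing the data, gave 0.45. Without both libraries numbered 16 Pfkp was at -0.46, and with a pseudocount of 5 Ankrd37 was at 0.67, Ndrg1 at -0.36, Ero1l at -0.15 and Mxi1 at -0.28.

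Counts over all genes moved more. They were 46 higher and 37 lower without the intensity trend, 160 and 111 with library number as a replicate block, 13 to 48 and 8 to 26 without 1 library (each of the 6 lowered them by more than 1.5 times), 15 and 9 without both libraries numbered 11, 3 and 0 without both numbered 14, and 13 and 1 without both numbered 16; fewer samples entered the last 4. Rescaling gave 72 higher of 160 called, against 82 of 143 as deposited. The median of the members, 0.06, was 0.22 with a filter at 5 FPKM (28 tested; all genes 0.14), -0.12 when rescaled (all genes -0.13), 0.25 without both numbered 16, and -0.074 (without RR 14) to 0.21 (without FP 14) without 1 library.

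Deviations of same-numbered libraries correlated at 0.32, 0.18 and 0.09 for 11, 14 and 16, each library best with its own number, which is a hint from the data and not the design; the block ended no call among the named genes. Depth limits the low members, such as Ankrd37, Ndrg1, Adm and Egln3.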

Other observations

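The neighbouring branches of sugar metabolism held no gene past the threshold. Of 17 glycogen genes, all tested, 0 passed in limma. At an unadjusted p under 0.05 there were 2 (11.8%), against 10.3% of all tested genes. Pygl, a glycogen phosphorylase that frees glucose units from the glycogen known to be stored in maturing chondrocytes, had 50.7, 35.7 and 45.4 FPKM in FP and 22.5, 10.8 and 27.8 FPKM in RR (log2 change 1.16 ± 0.36, SE; limma adjusted p = 0.279). Ugp2, which makes the UDP-glucose used for glycogen and for glycosaminoglycans, had 15.9, 6.24 and 6.26 FPKM in FP and 5.13, 1.96 and 2.89 FPKM in RR (log2 change 1.22 ± 0.42, SE; limma adjusted p = 0.333). In both genes each FP value lay above each RR value, as in 3 of the 17 (17.65%), against 8.74% of all tested genes. The median log2 change of the list was -0.02.

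Of 16 genes of the pentose phosphate, serine and glycerol branches, 14 were tested and 0 passed. At an unadjusted p under 0.05 there were 3 (21.4%), against 10.3% of all tested genes. Taldo1, the transaldolase of the pentose phosphate pathway, had 62.7, 50.7 and 55.8 FPKM in FP and 28.4, 13.9 and 39.3 FPKM in RR (log2 change 1.14 ± 0.37, SE; limma adjusted p = 0.303). Shmt2, the mitochondrial serine hydroxymethyltransferase, had 30.7, 31.7 and 33.2 FPKM in FP and 17.6, 18.04 and 22.3 FPKM in RR (log2 change 0.70 ± 0.24, SE; limma adjusted p = 0.327). Neither overlapped between groups. In the list 3 of the 14 tested (21.4%) lay above RR in this way, against 8.74% of all tested genes. Gpd1, a glycerol phosphate dehydrogenase abundant in fat, stood at 49.2 FPKM in RR 16 and at 5.58 FPKM or less in every other library. It was chosen after its values were seen, and RR 16 also held 417.3 FPKM of adipocyte markers, 369 FPKM of it Fabp4.

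Of 20 genes that handle the entry of pyruvate into mitochondria, 19 were tested and 0 passed. At an unadjusted p under 0.05 there was 1 (5.26%), against 10.3% of all tested genes. That gene was Pdk2, a kinase that inhibits pyruvate dehydrogenase, at 4.59, 3.33 and 6.34 FPKM in FP and 7.996, 10.6 and 13.9 FPKM in RR (log2 change -1.04 ± 0.31, SE; limma adjusted p = 0.247). No FP value reached the lowest RR value, which held for 1 of the 19 tested (5.26%), against 7.28% of all tested genes.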
